A study of Arabidopsis thaliana with 18 samples.

Results

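Rosette levels of 10 regulators of the iron deficiency response were followed over 6 groups of Arabidopsis thaliana plants, the mutant era1 and the wild type (WT), each grown at 0, 2 or 10 mM nitrate. The 10 genes were taken by their gene IDs out of 32744 counted genes and comprise the 4 subgroup Ib basic helix-loop-helix (bHLH) genes bHLH38, bHLH39, BHLH100 and BHLH101, the 3 IRON MAN peptide genes IMA1, IMA2 and IMA3, the transcription factor PYE, the ubiquitin ligase BTS and the ferric reductase FRO3. They were selected on their levels and fold changes in these same libraries, so their values, and the number of them past a threshold, are given as a description and support nothing. The plants grew on potting soil, whole rosettes were taken at Boyes stage 5.10 (first flower buds visible), and each genotype and dose had 3 libraries. The era1 genotype is labelled as a T-DNA insertion knock-out, with no other allele or agent named for either genotype. Each group has 3 biological replicates by its description, which names neither single plants nor pools, and standard errors and p-values measure only how libraries vary.

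Under iron shortage, Arabidopsis accumulates the subgroup Ib bHLH factors, which in roots pair with FIT to switch on the ferric reductase FRO2 and the iron importer IRT1. The genes of the subgroup, along with IMA and PYE, are activated by subgroup IVc bHLH factors (ILR3, bHLH34, bHLH104 and bHLH115) and by bHLH121. Some of the IVc proteins, ILR3 among them, are degraded through BTS. IMA peptides bind BTS and block it, while PYE represses genes of iron transport and storage, FRO3 among its reported targets. In leaves the same genes are induced by iron shortage, and IMA peptides also signal between shoot and root.

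bHLH proteins commonly bind the G-box and the wider class of E-boxes. The 250 bases before the annotated gene start were read from the RefSeq assembly TAIR10.1 by locus tag for all 10 genes, and 4 are printed because they hold the G-box matches or form the tandem pair. Capitals mark the G-box CACGTG, searched on both strands. The stretches are bHLH38 at chr3:21085246-21085495 (minus strand), bHLH39 at chr3:21087711-21087960 (minus), BHLH100 at chr2:17199455-17199704 (minus) and BTS at chr3:6273716-6273965 (plus), each written 5′ to 3′.
bHLH38: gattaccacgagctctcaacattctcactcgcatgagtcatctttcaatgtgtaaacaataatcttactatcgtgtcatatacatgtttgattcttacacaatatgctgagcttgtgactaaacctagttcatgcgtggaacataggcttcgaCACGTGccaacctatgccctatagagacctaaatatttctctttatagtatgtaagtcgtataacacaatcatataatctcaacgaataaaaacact
bHLH39: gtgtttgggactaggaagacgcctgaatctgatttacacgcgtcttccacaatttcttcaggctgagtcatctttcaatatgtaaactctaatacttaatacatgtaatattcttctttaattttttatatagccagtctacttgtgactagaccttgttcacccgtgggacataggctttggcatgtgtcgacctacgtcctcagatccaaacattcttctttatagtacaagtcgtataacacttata
BHLH100: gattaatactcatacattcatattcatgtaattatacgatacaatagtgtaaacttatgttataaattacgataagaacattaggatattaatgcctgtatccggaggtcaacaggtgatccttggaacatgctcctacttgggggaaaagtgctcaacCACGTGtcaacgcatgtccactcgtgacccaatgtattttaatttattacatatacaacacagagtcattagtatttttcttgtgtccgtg
BTS: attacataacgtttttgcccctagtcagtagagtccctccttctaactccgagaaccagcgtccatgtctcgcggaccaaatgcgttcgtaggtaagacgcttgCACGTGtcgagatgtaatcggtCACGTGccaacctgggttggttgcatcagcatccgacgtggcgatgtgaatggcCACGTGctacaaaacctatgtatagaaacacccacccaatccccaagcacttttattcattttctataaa
The G-box occurred in 3 of the 10 promoters, once in bHLH38, once in BHLH100 and 3 times in BTS, against 6.49% of 27443 promoters of the same length. The looser E-box CANNTG, of which every G-box is one case, occurred in 7 of the 10, against 55.3% of all. Neither the evening element AAAATATCT (2.36% of all promoters) nor the CCA1-binding site AAAAATCT (6.69%) occurred in any of the 10, and neither can overlap a G-box. The tandem neighbours bHLH38 and bHLH39 had 61.1% identical positions over 288 aligned columns of their promoters, yet only bHLH38 carried the G-box. IMA1 and IMA2, which also lie side by side, were 68.1% identical there with a shared run of 28 bases. The last 300 transcript bases, where the library kit places its reads, were 49.1% identical between bHLH38 and bHLH39 with no shared run above 17 bases, and 51.1% between IMA1 and IMA2 with none above 9.

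Reads assigned to genes numbered 4748044 to 6306900 per library, with 20738 to 21486 genes detected. Levels are given as CPM, read counts scaled to library size after correction by the trimmed mean of M values (TMM). Each library counts tags near the transcript 3′ end, so levels are compared between groups and not between genes. ERA1 (AT5G40280), the farnesyltransferase beta subunit, had 6 to 17 counts in the era1 libraries against 42 to 54 in the WT libraries. The locus printed in the genotype label, AT5G66470, had 88 to 262 counts in era1 and 114 to 230 in WT. The 6 leaf markers, all detected, summed to 5783 to 6645 CPM in era1 at 0 mM, against 11712.5 to 12818 CPM in WT at 0 mM. They summed to 9024 to 10613 CPM in the era1 libraries at 2 and 10 mM, against 11029 to 13134 CPM in those of WT. The 9 root markers summed to between 7.58 and 63.2 CPM per library, nearly all of it from PYK10, a beta-glucosidase of root endoplasmic reticulum bodies. The other 8 summed to 2.55 CPM or less, with CASP5 and RHS19 at 0 in all 18 libraries. The 5 flower bud markers summed to between 0.715 and 7.39 CPM. In whole rosettes, fewer cells expressing a gene and less RNA per cell cannot be told apart.

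**Figure D1:**
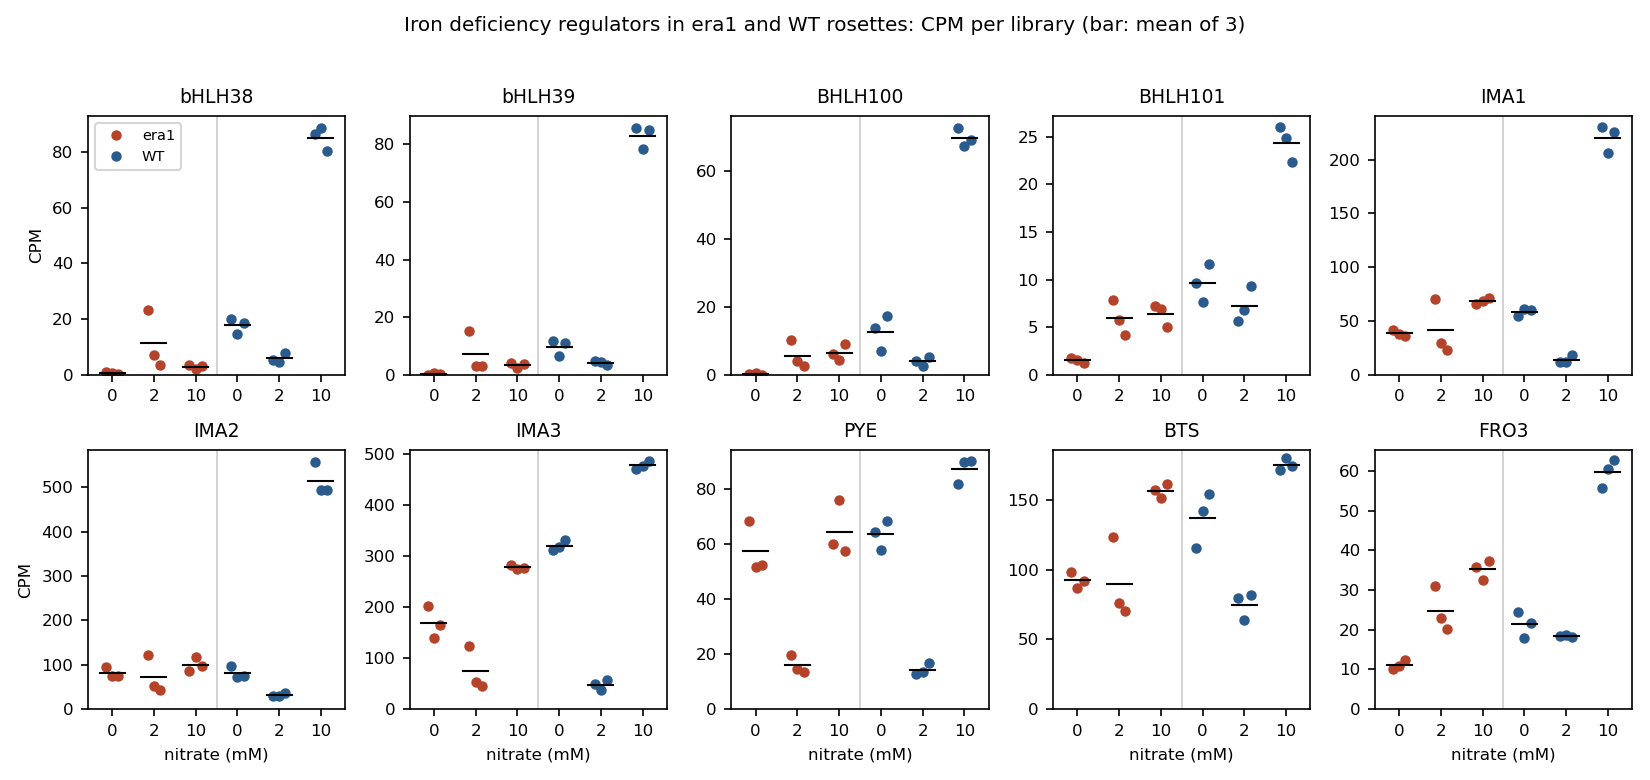
CPM (vertical axis, linear, from 0) of the 10 genes in each library, with nitrate in mM on the horizontal axis, era1 in red and WT in blue, and a bar at the mean of 3 libraries. In all 10 panels the WT libraries at 10 mM stand highest, and in era1 at 2 mM a single library stands above the other 2.

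All 10 genes had their highest group mean in WT at 10 mM nitrate. The lowest mean fell in era1 at 0 mM for 5 genes (the 4 subgroup Ib genes and FRO3) and in WT at 2 mM for the other 5 (the 3 IMA genes, PYE and BTS). The ratio of highest to lowest mean was 312-fold for bHLH39, 210.2-fold for BHLH100 and 119-fold for bHLH38, 15.8-fold for BHLH101 and IMA1, 16.3-fold for IMA2, and 2.34-fold for BTS.

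Each of the 4 subgroup Ib genes had its lowest levels in era1 at 0 mM and its highest in WT at 10 mM. bHLH38 (AT3G56970) stood at 0.876, 0.803 and 0.474 CPM in era1 at 0 mM, at 23.4, 6.96 and 3.71 CPM at 2 mM and at 3.71, 1.94 and 3.04 CPM at 10 mM. In WT it stood at 20.2, 14.7 and 18.5 CPM at 0 mM, at 5.44, 4.52 and 7.98 CPM at 2 mM and at 86.4, 88.7 and 80.4 CPM at 10 mM. The 2 genotypes thus had no common range at 0 and 10 mM, and overlapped at 2 mM. bHLH39 (AT3G56980), which acts redundantly with bHLH38, had 0, 3 and 2 raw counts in era1 at 0 mM, then 15.2, 3.21 and 2.90 CPM at 2 mM and 4.05, 2.47 and 3.75 CPM at 10 mM. Its WT levels were 11.7, 6.66 and 10.9 CPM at 0 mM, 4.79, 4.52 and 3.45 CPM at 2 mM, and 85.6, 78.4 and 85.0 CPM at 10 mM. The WT libraries at 10 mM lay above all others, and the 4 middle groups (WT at 0 mM, era1 at 2 mM, WT at 2 mM and era1 at 10 mM) each overlapped the next.

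BHLH100 (AT2G41240) had 2, 4 and 0 raw counts in era1 at 0 mM, then 10.2, 4.11 and 2.74 CPM at 2 mM and 6.07, 4.41 and 9.11 CPM at 10 mM. In WT it was at 13.8, 7.05 and 17.4 CPM at 0 mM, 4.14, 2.67 and 5.39 CPM at 2 mM and 72.5, 67.2 and 68.9 CPM at 10 mM. The era1 libraries at 2 and 10 mM overlapped each other and those of WT at 2 mM. BHLH101 (AT5G04150), the member of the subgroup with the narrowest range here, was at 1.75, 1.61 and 1.26 CPM in era1 at 0 mM, 7.87, 5.71 and 4.19 CPM at 2 mM and 7.25, 6.88 and 5.003 CPM at 10 mM. Its WT levels were 9.63, 7.64 and 11.7 CPM at 0 mM, 5.66, 6.79 and 9.27 CPM at 2 mM, and 25.9, 24.8 and 22.3 CPM at 10 mM. The order of its 4 middle groups is not resolved, since each overlaps the next.

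Between genotypes, the log2 fold change (era1 over WT, with its standard error) at 10 mM was -4.86 ± 0.35 for bHLH38, -4.59 ± 0.32 for bHLH39, -3.41 ± 0.27 for BHLH100 and -1.93 ± 0.19 for BHLH101. At 0 mM it was -4.60 ± 0.56, -5.05 ± 0.69, -5.19 ± 0.59 and -2.64 ± 0.28 for the same genes in that order. The era1 values at 0 mM rest on few reads. Leaving out single libraries gave values between -5.69 and -4.56 for bHLH39 and between -6.08 and -4.61 for BHLH100. At that dose all 6 leaf markers were also lower in era1 than in WT at a false discovery rate (FDR) under 0.05 in edgeR's quasi-likelihood test, beside 24.6% of all genes, with log2 fold changes between -2.11 and -0.67, as was PYK10 (-1.26 ± 0.30, FDR = 0.00124). At 10 mM the floral gene AG was lower in era1 than in WT (-2.40 ± 0.52, FDR = 0.00114). The part of these markers in the differences of the regulators was not tested. At 2 mM the era1 and WT libraries of all 4 genes overlapped, with log2 fold changes of 0.90 ± 0.41, 0.71 ± 0.44, 0.47 ± 0.43 and -0.30 ± 0.23. Within WT, the log2 fold change of 2 over 10 mM ran from -4.28 ± 0.32 (bHLH39) to -1.75 ± 0.19 (BHLH101), and that of 0 over 10 mM from -3.08 ± 0.27 (bHLH39) to -1.33 ± 0.18 (BHLH101). Within era1, 0 over 10 mM ran from -4.22 ± 0.67 (BHLH100) to -1.995 ± 0.812 (bHLH38), while 2 over 10 mM was 1.94 ± 0.46 for bHLH38, 1.02 ± 0.44 for bHLH39, -0.22 ± 0.37 for BHLH100 and -0.12 ± 0.23 for BHLH101, with overlapping libraries for all 4.

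The group means of the IMA genes were highest in WT at 10 mM and lowest in WT at 2 mM, with the era1 means between. For IMA3 the era1 libraries at 2 mM overlapped those of WT at that dose. IMA1 (AT1G47400) stood at 41.9, 37.6 and 36.0 CPM in era1 at 0 mM, at 70.7, 29.99 and 23.4 CPM at 2 mM and at 66.3, 68.6 and 71.5 CPM at 10 mM. In WT it stood at 54.6, 60.7 and 60.4 CPM at 0 mM, at 11.5, 12.1 and 18.1 CPM at 2 mM and at 229.9, 206 and 225.5 CPM at 10 mM. Every era1 library at 2 mM was above every WT library at that dose, and every era1 library at 10 mM was below every WT library at that dose. IMA2 (AT1G47395) was at 93.9, 74.5 and 74.7 CPM in era1 at 0 mM, 122, 51.4 and 43.7 CPM at 2 mM and 85.0, 118 and 97.6 CPM at 10 mM. Its WT levels were 97.7, 72.7 and 74.9 CPM at 0 mM, 30.04, 29.2 and 35.6 CPM at 2 mM, and 558, 494 and 494 CPM at 10 mM. The 3 era1 groups and WT at 0 mM formed a run of overlapping neighbours, with WT at 10 mM above and WT at 2 mM below.

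IMA3 (AT2G30766) was at 202, 140.2 and 166 CPM in era1 at 0 mM, 123, 53.0 and 46.1 CPM at 2 mM and 283, 275 and 276 CPM at 10 mM. In WT it was at 313, 319 and 331 CPM at 0 mM, 50.1, 37.01 and 56.7 CPM at 2 mM and 472, 477 and 486 CPM at 10 mM. It was the only IMA gene whose WT libraries at 0 mM lay above all era1 libraries, and its 2 genotypes overlapped only at 2 mM. The log2 fold change of era1 over WT at 10 mM was -1.68 ± 0.20 for IMA1, -2.36 ± 0.21 for IMA2 and -0.78 ± 0.19 for IMA3. At 0 mM it was -0.61 ± 0.22, -0.01 ± 0.22 and -0.92 ± 0.20, and at 2 mM 1.56 ± 0.27, 1.19 ± 0.25 and 0.63 ± 0.23, for the 3 genes in that order. Within WT, 2 over 10 mM gave -3.98 ± 0.25 (IMA1), -4.03 ± 0.24 (IMA2) and -3.32 ± 0.22 (IMA3), and 0 over 10 mM gave -1.91 ± 0.20, -2.66 ± 0.22 and -0.58 ± 0.19. Within era1, 2 over 10 mM gave -0.74 ± 0.22, -0.47 ± 0.22 and -1.91 ± 0.21, and 0 over 10 mM gave -0.84 ± 0.22, -0.31 ± 0.22 and -0.72 ± 0.20.

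PYE and BTS, like the IMA genes, had their lowest mean in WT at 2 mM. PYE (AT3G47640) stood at 68.3, 51.7 and 52.6 CPM in era1 at 0 mM, at 19.7, 14.5 and 13.5 CPM at 2 mM and at 59.9, 76.0 and 57.5 CPM at 10 mM. In WT it stood at 64.4, 58.0 and 68.4 CPM at 0 mM, at 12.6, 13.6 and 16.6 CPM at 2 mM and at 81.9, 89.7 and 90.4 CPM at 10 mM. In both genotypes the 2 mM libraries lay far below those of the other doses, and the genotypes were separate only at 10 mM. BTS (AT3G18290) was at 98.1, 87.1 and 92.0 CPM in era1 at 0 mM, 123, 75.9 and 70.8 CPM at 2 mM and 157, 152 and 162 CPM at 10 mM. Its WT levels were 116, 142 and 154 CPM at 0 mM, 79.5, 63.7 and 81.7 CPM at 2 mM, and 172, 180.3 and 175 CPM at 10 mM. At 0 mM every era1 library was below every WT library, and at 2 mM the genotypes overlapped. Over the doses 0, 2 and 10 mM, the log2 fold change of era1 over WT was -0.15 ± 0.12, 0.15 ± 0.18 and -0.44 ± 0.12 for PYE, and -0.57 ± 0.14, 0.26 ± 0.15 and -0.16 ± 0.13 for BTS. The log2 fold change of 2 over 10 mM was -2.02 ± 0.14 in era1 and -2.61 ± 0.15 in WT for PYE, and -0.80 ± 0.14 and -1.23 ± 0.14 for BTS. That of 0 over 10 mM was -0.17 ± 0.12 in era1 and -0.46 ± 0.12 in WT for PYE, and -0.76 ± 0.14 and -0.35 ± 0.14 for BTS.

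FRO3 (AT1G23020), a ferric chelate reductase of mitochondria and a target of PYE, was at 9.99, 10.9 and 12.3 CPM in era1 at 0 mM, 31.1, 23.0 and 20.2 CPM at 2 mM and 35.8, 32.6 and 37.3 CPM at 10 mM. In WT it was at 24.4, 17.8 and 21.8 CPM at 0 mM, 18.5, 18.7 and 18.1 CPM at 2 mM and 55.8, 60.6 and 62.7 CPM at 10 mM. Its era1 libraries were ordered by dose without overlap, whereas in WT the 0 and 2 mM libraries overlapped. The log2 fold change of era1 over WT at 0, 2 and 10 mM was -0.94 ± 0.15, 0.42 ± 0.14 and -0.76 ± 0.12. That of 0 over 10 mM was -1.66 ± 0.14 in era1 and -1.48 ± 0.13 in WT, and that of 2 over 10 mM -0.51 ± 0.13 in era1 and -1.69 ± 0.13 in WT. Genes annotated on the opposite strand overlap FRO3, IMA3, bHLH38 and BHLH101, and the strand setting of the counting is not given in the sources used here, so reads of the partners cannot be told apart for these 4.

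**Figure D2:**
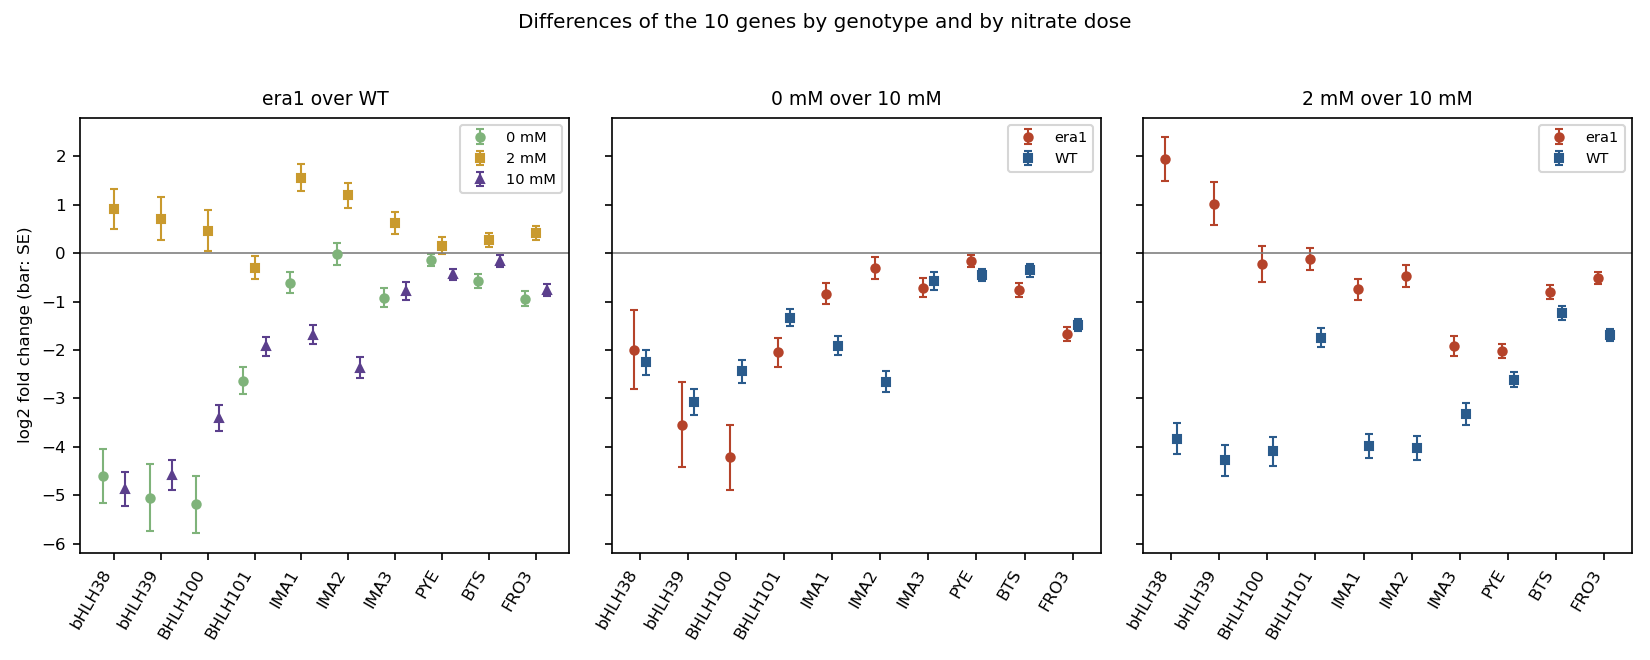
Log2 fold change of the 10 genes (vertical axis, bars show the standard error), as era1 over WT at each dose (left), 0 mM over 10 mM in each genotype (middle) and 2 mM over 10 mM in each genotype (right). At 10 mM all 10 points for era1 over WT are below 0, and for 2 over 10 mM the WT points reach -4.28 while bHLH38 in era1 stands at 1.94.

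A gene was called where its FDR was under 0.05 in edgeR's quasi-likelihood fit of all 18358 tested genes. For era1 over WT at 10 mM, 9 of the 10 genes were called lower, beside 14.3% of all genes, and BTS was not called. All 10 had every era1 library below every WT library at that dose, beside 21.7% of all genes. At 0 mM 8 were called lower (24.6% of all genes) and none higher, with IMA2 and PYE not called. At 2 mM IMA1, IMA2 and FRO3 were called higher (10.9% of all genes) and none lower. Within WT, all 10 were called lower at 0 than at 10 mM (26.7% of all genes) and all 10 lower at 2 than at 10 mM (28.3%), while 8 were called higher at 0 than at 2 mM (20.3%) and none lower. Within era1, 8 were called lower at 0 than at 10 mM (28.0% of all genes). At 2 against 10 mM, 5 were called lower (26.5%) and bHLH38 alone was called higher (25.5%). At 0 against 2 mM, IMA3 and PYE were called higher (23.7%), and the 4 subgroup Ib genes and FRO3 lower (26.0%). Comparisons that involve WT at 10 mM share its 3 libraries, and since the choice of members drew on these contrasts nothing is read from the counts.

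The median log2 fold change of the 10 genes was -1.80 for era1 over WT at 10 mM, against 0.01 over all tested genes. It was -0.93 at 0 mM (0.02 over all genes) and 0.55 at 2 mM (-0.01 over all). In WT it was -1.70 for 0 over 10 mM and -3.58 for 2 over 10 mM, and in era1 -1.25 and -0.49, with all-gene medians between -0.03 and 0.01.

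The difference between the genotypes in a dose contrast was fitted for 2 and for 0 against 10 mM. The log2 fold change of 2 over 10 mM was greater in era1 than in WT by 5.77 ± 0.56 for bHLH38, 5.30 ± 0.56 for bHLH39, 3.88 ± 0.51 for BHLH100 and 1.63 ± 0.30 for BHLH101. The same difference was 3.24 ± 0.33 for IMA1, 3.55 ± 0.33 for IMA2, 1.41 ± 0.30 for IMA3 and 1.18 ± 0.19 for FRO3, and it was smaller for PYE (0.59 ± 0.21) and BTS (0.43 ± 0.20). The first 8 were called higher, beside 7.70% of all genes, and PYE and BTS were not called. For 0 over 10 mM only IMA2 (2.35 ± 0.31) and IMA1 (1.07 ± 0.29) were called, both higher, beside 15.6% of all genes. With DESeq2 in place of edgeR 1 of the 10 was called there, a count without its all-gene share from which nothing is read.

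One library weighs on every value for era1 at 2 mM. Its first library was the highest of its group in all 10 genes and the third the lowest in all 10, so that bHLH38 spanned 6.32-fold within the group. Of 15080 well-counted genes, 88 stood more than 1.5-fold above both other libraries of the group in the first library. Over the 18 libraries this number ranged between 39 and 180. Why the 10 genes were highest in the first library was not tested. Without it the genotype difference at 2 mM was -0.18 ± 0.28 for bHLH38 and 0.23 ± 0.14 for FRO3, and 2 of the 10 genes (IMA1 at 0.94 ± 0.16 and IMA2 at 0.59 ± 0.16) were called higher, where 17.7% of all genes were called in either direction. Without the third library 5 were called. Over all genes, 4040 were called with all 18 libraries and between 2933 and 3763 with single libraries left out. The era1 contrast of 2 with 10 mM became 0.85 ± 0.31 for bHLH38 and -0.17 ± 0.33 for bHLH39 without the first library, and 1 gene was called higher and 7 lower, where 47.7% of all genes were called in either direction. In the contrast of 0 with 2 mM in era1 IMA1 turned to 0.53 ± 0.14 without it, against -0.10 ± 0.23 with it, and 5 genes were called higher and 5 lower (45.8% of all genes in either direction). The differences between genotypes in the contrast of 2 with 10 mM kept their sign, at 4.68 ± 0.38 for bHLH38, 4.11 ± 0.42 for bHLH39, 2.95 ± 0.20 for IMA2 and 0.83 ± 0.18 for IMA3, and 8 of the 10 were called, all higher (13.1% of all genes in either direction).

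**Figure D3:**
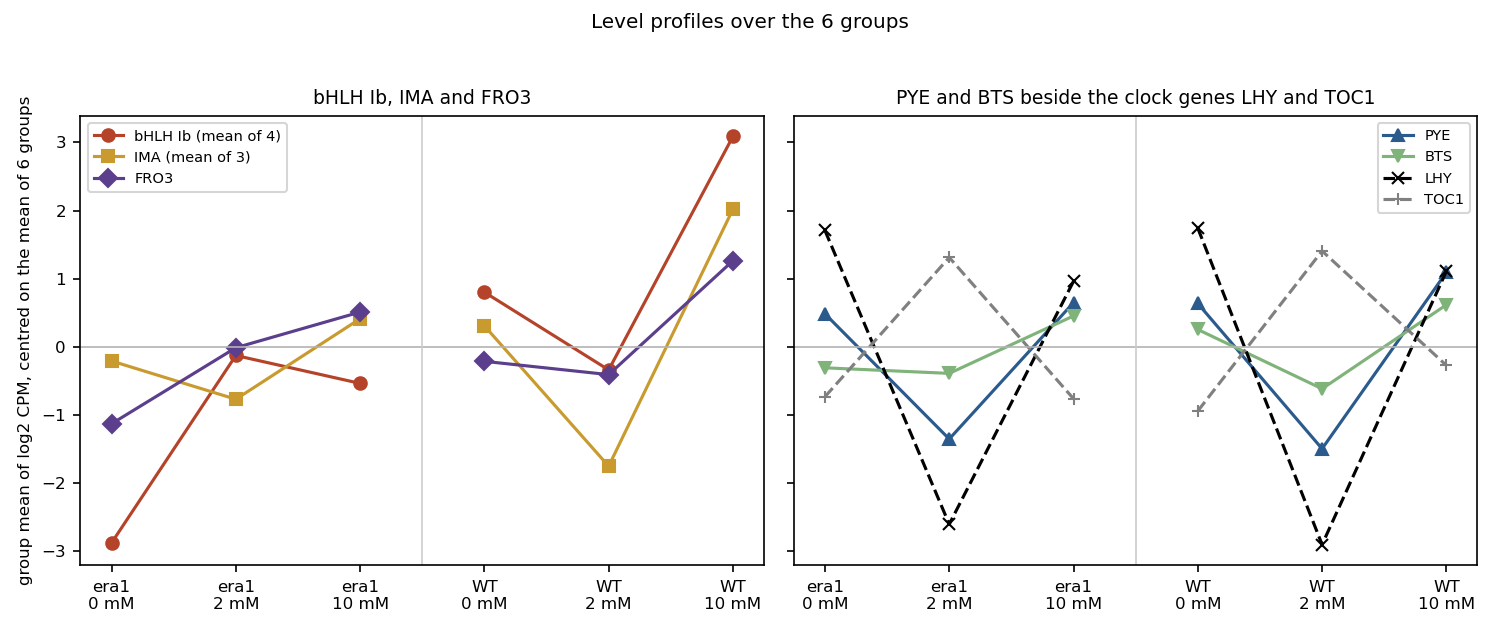
Group means of log2 CPM centred on the mean of the 6 groups (vertical axis), for the subgroup Ib and IMA means and FRO3 (left) and for PYE and BTS beside the clock genes LHY and TOC1 (right), with era1 and WT at 0, 2 and 10 mM on the horizontal axis. The subgroup Ib mean runs between -2.88 in era1 at 0 mM and 3.09 in WT at 10 mM, and PYE is low at 2 mM in both genotypes, where LHY is low and TOC1 is high.

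Clock genes moved with nitrate dose in both genotypes. LHY, a morning clock gene, had mean levels of 723 ± 22.7, 35.9 ± 1.15 and 432 ± 42.8 CPM in era1 at 0, 2 and 10 mM (SD, n = 3), and of 740.0 ± 13.1, 29.4 ± 4.48 and 477 ± 15.5 CPM in WT. TOC1, an evening gene, averaged 5.53, 24.0 and 5.41 CPM in era1 and 4.83, 25.7 and 7.82 CPM in WT over the same doses. Of the 11 clock genes, 7 were called higher and 3 lower at 2 than at 10 mM in era1, beside 25.5% and 26.5% of all genes. In WT 7 were likewise called higher and 3 lower, beside 28.8% and 28.3%. For era1 over WT, 6 were called higher and 1 lower at 0 mM, beside 24.5% and 24.6%, and 1 higher and 3 lower at 2 mM, beside 10.9% and 11.1%. At 10 mM 1 was called higher and 1 lower, beside 15.4% and 14.3%. Harvest time and dose cannot be told apart here. The part of the clock in the dose and genotype contrasts of the 10 regulators was not tested. Over the doses 0, 2 and 10 mM, the clock genes had median log2 fold changes of 0.39, -0.10 and -0.06 for era1 over WT. A median can hide changes in opposite directions, so it cannot show an unchanged clock. At 10 mM the called genes were GI (0.999 ± 0.132, higher in era1) and TOC1 (-0.526 ± 0.183, lower in era1).

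Genes outside the list were ranked by how closely their 6 group means of log2 CPM, centred on their own mean, matched a member profile, using the root mean square (RMS) difference over 15070 genes. The subgroup Ib mean was nearest to AT2G14247 (RMS 0.49), SRG3 (AT3G02040, a glycerophosphodiester phosphodiesterase, 0.84) and AT5G45630 (0.86). AT2G14247 averaged 3.12, 35.6 and 43.8 CPM in era1 at 0, 2 and 10 mM, and 42.8, 29.5 and 232 CPM in WT. The IMA mean was nearest to AT5G24155 (0.35), AT4G32920 (0.445) and AT2G41250 (0.46), the last annotated next to BHLH100. PYE was nearest to AT1G15760 (0.12), COL1 (AT5G15850, a CONSTANS-like gene of the light and clock network, 0.14) and AT3G12320 (0.22). BTS was nearest to AT5G37290 (0.06), AT1G22850 (0.08) and AT1G15290 (0.10), and FRO3 to EMB3114 (AT2G36000, 0.17), AT3G27540 (0.18) and YLMG1-1 (AT3G07430, 0.19). The likeness rests on 6 group means each and is a description.

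A wider list of the iron pathway held genes called in both directions, as did the tested genes as a whole. Of its 51 genes outside the 10 regulators, 40 had enough counts to test. For era1 over WT at 10 mM, 10 of the 40 were called higher, 7 lower and 23 not, with a median log2 fold change of -0.01. Over all genes 15.4% were called higher and 14.3% lower there. At 0 mM 6 of the 40 were higher and 16 lower (24.5% and 24.6% of all genes), and at 2 mM 5 were higher and 6 lower (10.9% and 11.1%). In era1, 9 were higher and 11 lower at 0 than at 10 mM (27.5% and 28.0% of all genes), and 7 higher and 19 lower at 2 than at 10 mM (25.5% and 26.5%). In WT, 10 were higher and 10 lower at 0 than at 10 mM (26.9% and 26.7%), and 12 higher and 16 lower at 2 than at 10 mM (28.8% and 28.3%).

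The upstream bHLH factors activate the subgroup Ib, IMA and PYE genes. For era1 over WT at 10 mM, 1 of the 5 tested was called higher and none lower, beside 15.4% and 14.3% of all genes. At 0 mM 1 was called higher and 1 lower, beside 24.5% and 24.6%. ILR3, whose protein BTS targets, averaged between 103 and 123 CPM over the 6 groups, and its only call among the 9 contrasts within or between genotypes was 2 over 10 mM in WT (log2 fold change 0.25 ± 0.09, FDR = 0.0234). bHLH104 was higher in era1 than in WT at 10 mM by 0.67 ± 0.19 (FDR = 0.011), at 20.5 ± 7.72 CPM in era1 against 12.9 ± 1.87 CPM in WT (SD, n = 3). It had overlapping libraries there, at 19.6, 13.2 and 28.6 CPM in era1 and 11.0, 12.85 and 14.8 CPM in WT. It was also higher at 2 than at 10 mM, by 0.53 ± 0.17 in era1 (FDR = 0.00872) and 1.11 ± 0.19 in WT (FDR = 1.98e-05). bHLH34 was lower at 2 than at 10 mM in both genotypes, by -1.33 ± 0.19 in era1 (FDR = 1.88e-06) and -0.76 ± 0.21 in WT (FDR = 0.00335). bHLH115 was lower at those doses too, by -0.42 ± 0.11 in era1 and -0.66 ± 0.11 in WT, while bHLH121 was higher by 0.72 ± 0.13 and 0.98 ± 0.14. None of bHLH34, bHLH115 and bHLH121 was called for era1 over WT at 10 mM (FDR = 0.0735, 0.801 and 0.251). The libraries of bHLH34 did not overlap there, at 9.78, 7.935 and 9.29 CPM in era1 and 6.74, 7.28 and 6.25 CPM in WT.

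The root partner FIT stood between 3.48 and 6.87 CPM in the group means, and IRT1 had 2 counts or fewer in the 3 libraries of any group. FIT was lower at 2 than at 10 mM in WT (-0.92 ± 0.25, FDR = 0.0027) and was not called for era1 over WT at any dose. FRO2, the root ferric reductase, averaged between 1.23 and 8.16 CPM and was lower at 2 than at 10 mM in era1 (-1.73 ± 0.40, FDR = 0.000751), with -0.07 ± 0.45 in WT (FDR = 0.896). It was higher in era1 than in WT at 0 mM (1.05 ± 0.29, FDR = 0.00377) and 10 mM (1.001 ± 0.376, FDR = 0.0461). NAI1, a subgroup IVa bHLH factor that promotes the breakdown of FIT, was lower in era1 than in WT at 0 mM (-1.74 ± 0.37, FDR = 0.000327). It was also lower at 0 than at 10 mM, by -2.45 ± 0.33 in era1 and -1.24 ± 0.26 in WT. MYB10, a factor needed for growth on scarce iron, was higher at 2 than at 10 mM in era1 (0.92 ± 0.34, FDR = 0.0263).

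Among chelators and transporters, NAS3 and YSL1 were higher in era1 at every dose. NAS3, a nicotianamine synthase, averaged 25.3 ± 5.72, 20.5 ± 3.33 and 26.7 ± 0.38 CPM in era1 at 0, 2 and 10 mM, against 6.94 ± 1.25, 5.15 ± 1.56 and 6.87 ± 1.86 CPM in WT. Its log2 fold change of era1 over WT was 1.86 ± 0.20, 1.98 ± 0.22 and 1.95 ± 0.20 (FDR = 2.35e-08, 3.34e-07 and 7.37e-08). YSL1, a transporter of the iron-nicotianamine chelate, averaged 53.0, 18.4 and 15.2 CPM in era1 and 23.4, 10.08 and 5.06 CPM in WT over the same doses, with log2 fold changes of 1.19 ± 0.13, 0.87 ± 0.18 and 1.58 ± 0.21. It was higher at 0 than at 10 mM in both genotypes, by 1.80 ± 0.14 in era1 and 2.19 ± 0.20 in WT, and higher at 2 than at 10 mM in WT by 0.99 ± 0.23.

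NAS1, another nicotianamine synthase, differed between genotypes in opposite directions at the ends of the dose range. It averaged 20.5 ± 8.38 CPM in era1 and 124 ± 13.9 CPM in WT at 0 mM, and 222 ± 35.2 CPM in era1 and 112 ± 5.07 CPM in WT at 10 mM. Its log2 fold change at 0 mM was -2.61 ± 0.18 (FDR = 8.88e-12), and within era1 0 over 10 mM gave -3.45 ± 0.17 (FDR = 2.86e-14). NAS4, a target of PYE, was lower at 2 than at 10 mM in both genotypes, by -2.15 ± 0.17 in era1 and -2.02 ± 0.18 in WT, as was the vacuolar exporter NRAMP4, by -1.69 ± 0.10 in era1 (FDR = 7.23e-13) and -2.02 ± 0.11 in WT (FDR = 4.2e-14). OPT3, which loads iron into the phloem, was lower at 2 than at 10 mM by -1.33 ± 0.11 in era1 and -1.54 ± 0.11 in WT, and was not called for era1 over WT at any dose (log2 fold changes -0.16 ± 0.10, 0.14 ± 0.11 and -0.07 ± 0.10).

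Other transporter genes among the largest differences had low or moderate levels. YSL2 was higher in era1 than in WT at 10 mM (1.54 ± 0.45, FDR = 0.0116) and lower at 2 than at 10 mM in era1 (-2.87 ± 0.52, FDR = 5.63e-05). YSL3 was higher in era1 than in WT at 2 mM (0.80 ± 0.15, FDR = 0.000447) and higher at 2 than at 10 mM, by 1.44 ± 0.16 in era1 and 0.46 ± 0.18 in WT. FRO8, a second mitochondrial ferric reductase, was higher in era1 than in WT at 0 mM (1.06 ± 0.14, FDR = 1.22e-06) and higher at 2 than at 10 mM, by 0.82 ± 0.13 in era1 and 0.83 ± 0.14 in WT. IREG1, an iron efflux transporter, was lower in era1 than in WT at 2 mM (-0.94 ± 0.19, FDR = 0.000545). MTPA2, a vacuolar zinc transporter induced by iron shortage, was higher at 0 than at 10 mM in era1 (1.17 ± 0.40, FDR = 0.0165).

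Storage genes split. FER1, the main leaf ferritin, averaged 136 ± 31.3, 72.7 ± 13.4 and 53.2 ± 8.04 CPM in era1 at 0, 2 and 10 mM and 112 ± 16.1, 49.8 ± 13.8 and 33.0 ± 3.56 CPM in WT. It was higher in era1 than in WT at 2 mM (0.54 ± 0.17, FDR = 0.0266) and 10 mM (0.69 ± 0.19, FDR = 0.00753), and higher at 0 than at 10 mM by 1.35 ± 0.17 in era1 and 1.76 ± 0.18 in WT. FER3 was lower in era1 at 10 mM, with 53.4 ± 5.30 CPM in era1 and 89.9 ± 5.26 CPM in WT (log2 fold change -0.75 ± 0.11, FDR = 2.24e-05). At 0 mM its log2 fold change of era1 over WT was -1.23 ± 0.13. Its log2 fold change of 2 over 10 mM was greater in era1 than in WT by 0.79 ± 0.17. FER4 was lower in era1 than in WT at 0 mM (-0.36 ± 0.13, FDR = 0.0316), and FER2 stayed between 0.574 and 1.40 CPM in the group means. VTL1, a vacuolar iron transporter-like gene, was higher in WT at 0 than at 10 mM (2.43 ± 0.38, FDR = 9.24e-06) and at 2 than at 10 mM (1.46 ± 0.45, FDR = 0.00716). VTL5, of the same family, was lower in era1 than in WT at 2 mM (-3.18 ± 0.77, FDR = 0.00402) and 10 mM (-3.13 ± 0.59, FDR = 0.000336). It had no counts in era1 at 0 mM, where it was at least 7.32-fold lower than in WT and at least 2.83-fold lower than in era1 at 10 mM, taking 3 counts over the group as the floor. In WT it was lower at 0 than at 10 mM (-1.80 ± 0.50, FDR = 0.00408).

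Of the chloroplast and other iron-responsive genes, ORG1 averaged 142 ± 18.9, 164 ± 59.2 and 401 ± 40.0 CPM in era1 at 0, 2 and 10 mM, and 163 ± 22.7, 167 ± 19.98 and 652 ± 5.62 CPM in WT. Its log2 fold change in WT was -2.002 ± 0.154 for 0 over 10 mM (FDR = 1.37e-10), and for era1 over WT at 10 mM -0.70 ± 0.15 (FDR = 0.000727). CGLD27, a chloroplast protein gene induced by iron shortage, was lower in era1 than in WT at 10 mM (-0.76 ± 0.10, FDR = 1.96e-06) and lower at 2 than at 10 mM, by -1.29 ± 0.10 in era1 and -2.27 ± 0.11 in WT. NEET, an iron-sulfur cluster protein of plastids and mitochondria, was higher at 0 than at 10 mM, by 0.67 ± 0.17 in era1 (FDR = 0.00171) and 2.85 ± 0.19 in WT (FDR = 1.32e-11). It was lower in era1 than in WT at 0 mM (-0.90 ± 0.16, FDR = 4.62e-05) and 2 mM (-0.92 ± 0.20, FDR = 0.00143), and higher at 10 mM (1.29 ± 0.20, FDR = 2.62e-05).

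**Figure D4:**
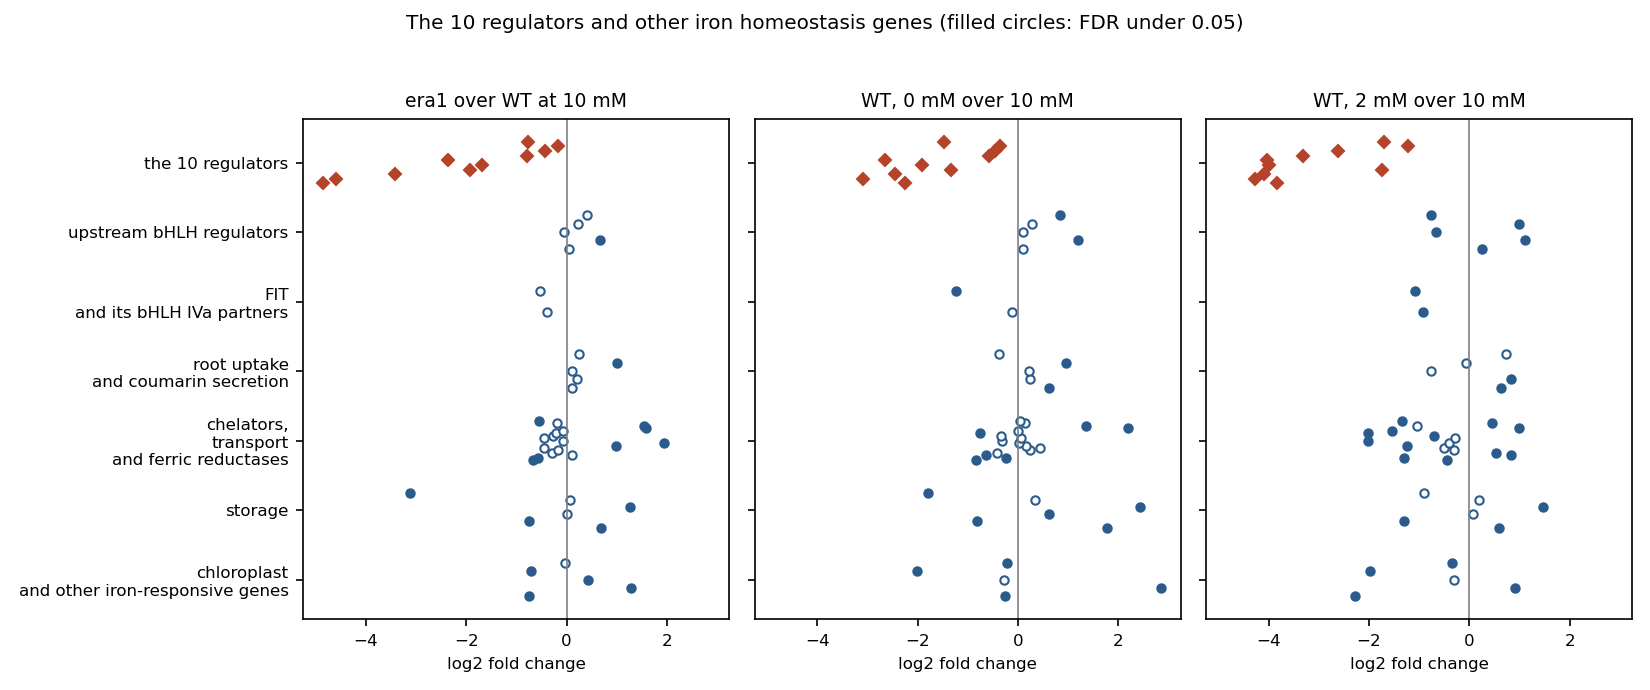
Log2 fold change (horizontal axis) of the 10 regulators (red diamonds) and of 40 tested iron homeostasis genes by role (circles, filled where FDR is under 0.05), for era1 over WT at 10 mM, WT 0 over 10 mM and WT 2 over 10 mM. All diamonds lie left of 0 in the 3 panels, for genes that were chosen on their fold changes in these libraries. The circles of most roles lie on both sides.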

How the data were processed

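RNA of rosettes was polyA-selected and made into single-end, stranded QuantSeq 3′ libraries, per the labels' protocols. The submitters' processing notes name TopHat2 and, as genome build, TAIR10. Versions, annotation, filters and the strand setting used in counting were not given in the sources used here. What the authors deposited are whole-number, unnormalized read counts, for 32744 genes and 5 summary counters in each of 18 libraries. The summary counters entered neither library sizes nor tests, and by library they held between 3.75% and 5.73% of all records as reads in no gene, 1.90% to 5.33% for reads without a unique alignment (group means of 4.72% to 4.97% at 0 and 2 mM, and of 2.52% in era1 and 2.15% in WT at 10 mM) and 0.116% to 0.141% for ambiguous reads.

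Differences were tested by quasi-likelihood in edgeR 4.0.16 under R 4.3.3 (functions glmQLFit, glmQLFTest, scaling by TMM, filterByExpr by group with a minimum count of 10 and a minimum total of 15), which left 18358 genes. A single model of 6 groups gave 11 contrasts, each adjusted by Benjamini-Hochberg over all genes tested, with calls at an FDR under 0.05. The standard error of a log2 fold change is its size divided by the square root of the F statistic. Replicate pairs within groups differed by more than sampling noise, with chi-square per degree of freedom between 1.50 and 4.44 over genes with 20 or more counts in the pair.

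The 10 members and the lists of iron, clock and marker genes were chosen with earlier results of these data known. All 10 members passed the filter on low counts. Of 59 iron genes written down, 51 had an ID whose name the RefSeq gene table bears out, and the other 8 were not used. Named genes of the iron list are, per contrast, up to 3 with the largest and 3 with the smallest log2 fold change among those called with a mean of at least 1 CPM, plus the ferritins, OPT3, FIT, IRT1, FRO2 and 5 upstream bHLH genes. ORG1 for era1 over WT at 10 mM, and the contrasts of genes named elsewhere by this rule, were added after their values were seen. Log2 CPM for the likeness ranking used a prior count of 2 and genes with a mean of at least 5 CPM. Promoters and overlaps came from the RefSeq assembly TAIR10.1, named differently from the build of the files, so no coordinates were moved between builds. Alternatives tried were DESeq2 1.42.0, RLE size factors, no filter on low counts, the replicate number as a block, a fit of only the groups compared, and leaving out each library.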

Additional observations from a re-analysis of the deposited data

Results flagged for a closer look

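Results listed here are those whose difference between the genotypes, in the same dose contrast, was itself past the threshold. Each value is the log2 fold change in era1 minus that in WT, and for the 10 regulators it is a description, since they were chosen with these contrasts known.

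For 2 against 10 mM the difference was 5.77 for bHLH38, 5.30 for bHLH39, 3.88 for BHLH100 and 1.63 for BHLH101. It was 3.24 for IMA1, 3.55 for IMA2, 1.41 for IMA3 and 1.18 for FRO3. The first era1 library at 2 mM was the highest of its group in all 10 regulators. Its part in these values is given by the fit without it, in which bHLH38 stood at 4.68 and IMA3 at 0.83. For 0 against 10 mM the difference was 2.35 for IMA2 and 1.07 for IMA1.

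In the wider iron list, 0 against 10 mM gave -3.60 for NAS1, -2.36 for YSL2, -2.19 for NEET, -1.88 for VTL1, -1.47 for NAS4, -1.21 for NAI1, -0.72 for AHA2 and -0.48 for FER3, and 0.95 for FRO8. For 2 against 10 mM the difference was -2.21 for NEET and -0.46 for AHA2, and it was 0.98 for both YSL3 and CGLD27, 0.79 for FER3 and 0.68 for ORG1.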

How the results depend on the processing

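Among 110 log2 fold changes (10 members in 11 contrasts), the direction and the side of the threshold were unchanged for 110 with RLE scaling, 107 with the replicate block, 106 in fits of only the groups compared, 105 with DESeq2 and 99 with no filter on low counts, and the rest changed side without changing sign. Between genotypes at 2 mM, 3 members were called, 7 with no filter on low counts, and 2 to 5 when single libraries were left out. Over all genes, that contrast at 2 mM had 4040 calls, and 2933 to 3763 when single libraries were left out. For the genotype by 0 against 10 mM contrast 2 were called, 4 with no filter and 1 with DESeq2. The cause of these changes was not tested. All-gene shares with no filter and with DESeq2 are not given here, so nothing is read from these counts. Of 780 values with a library left out, 738 kept their side, 23 lost and 18 gained a call. IMA1 in the contrast of 0 with 2 mM in era1 ran between -0.39 and 0.53 in these omissions, and reversed to 0.53 without the first era1 library at 2 mM. Calls that were lost most often were bHLH38 in era1 and BTS in WT, 0 against 10 mM, each in 5 of 6 omissions (log2 fold changes between -2.21 and -1.77 and between -0.44 and -0.22), and IMA1 at 0 mM and FRO3 at 2 mM between genotypes, each in 4 of 6 (-0.68 to -0.56 and 0.23 to 0.56). The order of the 6 group means held for 7 of 10 members with total counts in place of TMM, and all 15 nearest genes were the same with RLE. RLE moved the median of all genes by less than 0.1 on the log2 scale in all 11 contrasts. Same-numbered libraries showed little shared deviation (1 of 45 correlations over 0.1, from -0.10 to 0.14). With 3 libraries per group and low-count genes included, this cannot exclude a pairing by number. With the replicate block 107 of the 110 values kept their side while 3 gained a call. In era1 at 0 mM, bHLH39 had 5 and BHLH100 had 6 counts over 3 libraries, which limits the precision of those folds.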
